A study of Mus musculus with 6 samples.

Results

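The genes described here are 9 genes whose transcripts rise or fall with food supply in skeletal muscle: Pdk4, Pdk2, Arrdc2, Arrdc3, Angptl4, Ucp3, Txnip, Ppargc1a and Lpin1. They were taken by symbol from a count table of 13226 genes, and all 9 were present and tested. The list was chosen by measured values for Pdk4 and Arrdc2: earlier results of these data had shown that their levels differed widely between muscles and little between muscles of equal replicate number. Their spread and their order by number are therefore given as a description, without a test. The table came from RNA-sequencing of polyadenylated RNA of whole tibialis anterior (TA) muscle, the shin muscle that lifts the foot, in male C57BL/6 mice aged 8 weeks. Of 6 muscles, 3 received an intramuscular injection of AAV6:Yap-shRNA, an adeno-associated virus that expresses a short hairpin RNA against the Hippo pathway co-activator Yap, and 3 received a control virus, and all were excised 7 days later. The labels disagree on the control virus, which is an empty vector by sample title and AAV6:LacZ-shRNA by vector field and design text. Both vector backbones carry a CMV promoter, which is not limited to muscle fibres, and the labels give no viral dose. According to the design text, treated and control muscles were opposite legs of 3 animals, but no label states that the replicate number is the animal. Chow and water were freely available, and the labels give neither the hour at which tissue was taken nor whether food was withdrawn beforehand.

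When food is withdrawn, skeletal muscle moves from glucose to fatty acids as its fuel. Falling insulin and rising free fatty acids and glucocorticoids act through FOXO factors, PPAR nuclear receptors and the glucocorticoid receptor. Pyruvate dehydrogenase kinases then switch off the entry of pyruvate into the citric acid cycle, while lipases, fatty acid carriers and the enzymes of β-oxidation are induced. Pdk4 and Angptl4 are among the best known of these targets, and Arrdc2, Arrdc3 and Txnip belong to the α-arrestins, adaptor proteins whose transcripts respond to nutrients and hormones.

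The promoters of Pdk4, Ucp3 and Arrdc2 are shown because Pdk4 and Ucp3 had nearly the same profile over the 6 muscles and Arrdc2 another. Each sequence holds the 250 bases before the annotated start, 5′ to 3′ on the strand of the gene, from RefSeq on GRCm38.p6. The Pdk4 window is chr6:5496279-5496528 on the minus strand, the Ucp3 window is chr7:100472741-100472990 on the plus strand and the Arrdc2 window is chr8:70839721-70839970 on the minus strand. Capitals mark the nuclear receptor core site AGGTCA, the only searched motif found in the bases printed.
Pdk4: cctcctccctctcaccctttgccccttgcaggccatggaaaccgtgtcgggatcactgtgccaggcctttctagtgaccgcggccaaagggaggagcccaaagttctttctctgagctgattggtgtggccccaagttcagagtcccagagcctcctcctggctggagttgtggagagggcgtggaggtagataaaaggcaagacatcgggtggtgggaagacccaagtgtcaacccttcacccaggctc
Ucp3: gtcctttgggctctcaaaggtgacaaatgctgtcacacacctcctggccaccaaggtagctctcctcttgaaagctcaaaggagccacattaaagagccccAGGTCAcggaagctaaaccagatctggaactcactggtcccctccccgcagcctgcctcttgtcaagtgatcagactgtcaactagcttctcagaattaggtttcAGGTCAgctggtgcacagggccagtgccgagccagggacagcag
Arrdc2: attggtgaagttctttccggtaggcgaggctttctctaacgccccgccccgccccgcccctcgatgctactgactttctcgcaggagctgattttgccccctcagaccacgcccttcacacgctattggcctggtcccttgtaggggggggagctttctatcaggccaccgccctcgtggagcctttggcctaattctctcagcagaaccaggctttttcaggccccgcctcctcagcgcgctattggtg
The Ucp3 promoter held AGGTCA 2 times, with its first base at -149 and at -44 from the start. Neither strand of the Pdk4 window held AGGTCA, a pair of AGGTCA sites with 1 base between them (the DR1 element of PPAR and RXR), TGTTTAC (FOXO), TGTTCT (core site of the glucocorticoid receptor), CACGTG (E-box), GGAATG (TEAD) or TGACGTCA (CREB). The TEAD motif, the site of the factors that Yap binds, occurred once in the Arrdc2 window of 300 bases, on the other strand and at 36 from the start, beyond the bases printed. Over 32851 promoters of equal length, AGGTCA occurred on either strand in 16.3%, DR1 in 0.0396%, TGTTTAC in 3.65%, TGTTCT in 19.0%, CACGTG in 7.15%, GGAATG in 14.7% and TGACGTCA in 1.79%. Among the other members, Txnip held the FOXO motif at -121 on the other strand, and Lpin1 held AGGTCA at -74 and TGTTCT at -163. Of 2 starts of Pdk2, one had CACGTG at -126 and the other GGAATG at -136. No searched motif lay in the windows of Arrdc3 and Ppargc1a.

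Library totals ranged from 11987167 to 12710393 counts, and values are given as CPM (counts scaled to library size) after TMM scaling, whose factors ranged from 0.969 to 1.05. Yap1, the gene targeted by the hairpin, was at 71.2, 65.3 and 68.4 CPM in control muscles 1, 2 and 3 and at 32.0, 23.9 and 39.5 CPM in Yap-shRNA muscles 1, 2 and 3. All Yap-shRNA muscles lay below all control muscles, and their mean was 46.5% of control. The log2 fold change was -1.10 (SE 0.16, n = 3 per group), with an adjusted p of 0.436 in edgeR's quasi-likelihood test, which called 0 of 13226 genes after adjustment and 232 at an unadjusted p under 0.05. In whole muscle, fewer cells of a type and less RNA per cell cannot be told apart. Summed markers of fast fibres were at 121710 to 140210 CPM and those of slow fibres at 89.8 to 152 CPM.

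Pdk4 (ENSMUSG00000019577) encodes a pyruvate dehydrogenase kinase that muscle induces strongly in fasting, and it lies on chromosome 6 from 5483351 to 5496309 on the minus strand of GRCm38, with 3 annotated transcripts of which 2 are protein coding. Its counts were 13771, 3668 and 2209 in control muscles 1, 2 and 3 and 13454, 4449 and 2324 in Yap-shRNA muscles 1, 2 and 3. These are 1072, 307 and 181 CPM in the control group and 1129, 342 and 185 CPM in the Yap-shRNA group. In both groups muscle 1 was the highest and muscle 3 the lowest, and the groups overlapped over their whole range. Control muscle 1 held 5.91 times the level of control muscle 3, and Yap-shRNA muscle 1 held 6.09 times that of Yap-shRNA muscle 3. Between muscles of equal number, the Yap-shRNA level was 1.05, 1.11 and 1.02 times the control level. The group means were 520 ± 482 CPM (SD, n = 3) in control and 552 ± 506 CPM (SD, n = 3) in Yap-shRNA muscle. The log2 fold change between groups was 0.09 (SE 0.72, 95% interval -1.55 to 1.72), and its adjusted p was 1.00 in the quasi-likelihood test.

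**Figure D1:**
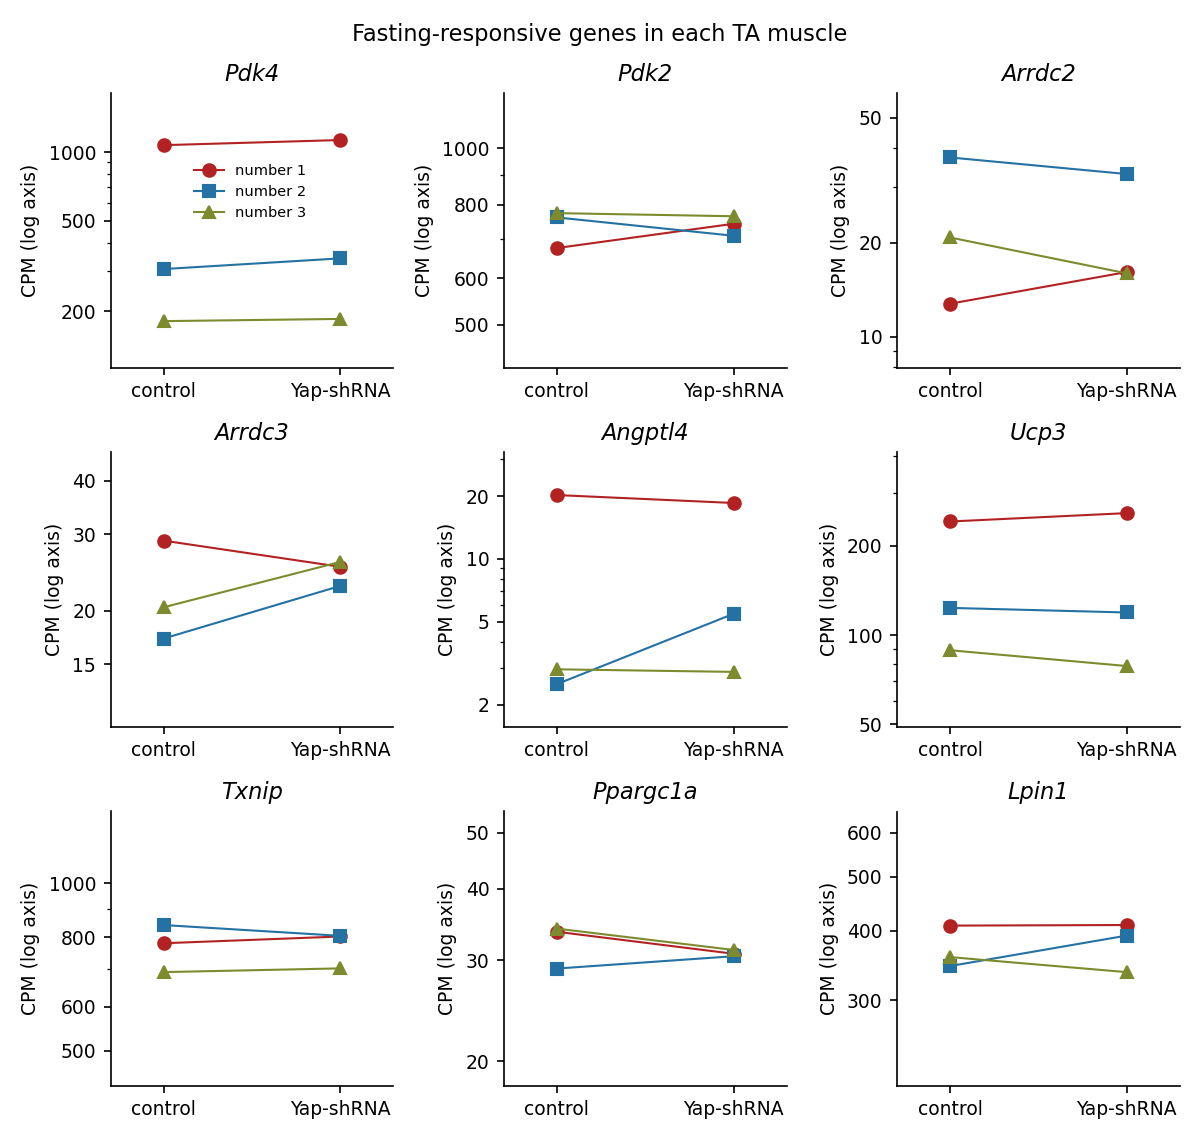
Level of each of the 9 genes in CPM (log axis, a separate scale for each gene) in the 3 control and 3 Yap-shRNA TA muscles. Each point is 1 muscle, and colour, symbol and connecting line mark equal replicate numbers. Pdk4 falls from 1072 and 1129 CPM in the muscles numbered 1 to 181 and 185 CPM in those numbered 3, and Arrdc2 is highest in the muscles numbered 2, at 37.4 and 33.1 CPM.

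Pdk2 (ENSMUSG00000038967, chromosome 11 from 95026258 to 95041354, minus strand) encodes the kinase that acts on the same complex in fed and fasted muscle. It was at 676, 762 and 775 CPM in control muscles 1, 2 and 3 and at 743, 709 and 765 CPM in Yap-shRNA muscles 1, 2 and 3. Its lowest and highest muscles differed little, and the group means were 737 ± 54.0 and 739 ± 28.4 CPM (SD, n = 3 each). Its log2 fold change was 0.0034 (SE 0.09, 95% interval -0.21 to 0.22).

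Scaled to exon length, Pdk4 and Pdk2 changed rank between muscles. The ratio of Pdk4 to Pdk2 in CPM per kb was 1.43, 0.363 and 0.211 in control muscles 1, 2 and 3 and 1.37, 0.434 and 0.218 in Yap-shRNA muscles 1, 2 and 3. Pdk4 thus made up 58.0% and 57.0% of the length-scaled signal of the 4 kinases in the muscles numbered 1, control first, but 16.9% and 17.5% in those numbered 3. In the muscles numbered 2 its share was 26.0% and 29.6%. Pdk2 took most of the remainder, from 40.6% in control muscle 1 to 80.4% in control muscle 3. Pdk1 stayed between 1.26% and 2.48% and Pdk3 between 0.0929% and 0.268%.

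None of the 12 genes of the pyruvate dehydrogenase complex and its regulators passed the test, adjusted or unadjusted. Of these, 3 had a log2 fold change above 0, and the median was -0.06, beside -0.0029 over all genes tested. The largest differences were those of Pdp2, a phosphatase that reactivates the complex, at 0.32 (SE 0.41), and of Mpc1, a subunit of the mitochondrial pyruvate carrier, at 0.23 (SE 0.16). Pdp2 was a low gene, at 3.50, 1.76 and 3.28 CPM in control and 5.54, 3.53 and 1.67 CPM in Yap-shRNA muscles 1, 2 and 3. Pdhx, the protein that ties the dihydrolipoyl dehydrogenase to the core, was the only gene of the list whose numbered pairs did not overlap (9.35% of all genes), and it was named after its values were seen. It did not have the order of Pdk4, being highest in the muscles numbered 2 and lowest in those numbered 1. Its levels were 95.2, 116 and 108 CPM in control and 95.1, 109 and 96.7 CPM in Yap-shRNA muscles 1, 2 and 3.

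Angptl4 (ENSMUSG00000002289, chromosome 17 from 33773750 to 33781830, minus strand) encodes a secreted inhibitor of lipoprotein lipase, which limits the uptake of circulating triglyceride. It was counted 260, 30 and 36 times in control muscles 1, 2 and 3 and 221, 71 and 36 times in Yap-shRNA muscles 1, 2 and 3, or 20.2, 2.51 and 2.95 CPM and 18.5, 5.45 and 2.87 CPM. Both muscles numbered 1 lay above the other 4, as for Pdk4, whereas the muscles numbered 2 and 3 overlapped. Control muscle 1 was 8.07 times control muscle 2, and Yap-shRNA muscle 1 was 3.40 times Yap-shRNA muscle 2. The group means were 8.57 ± 10.1 and 8.95 ± 8.40 CPM (SD, n = 3 each), and the log2 fold change was 0.05 (SE 0.83, 95% interval -1.82 to 1.92). The widest gap within a number was in the muscles numbered 2, where the Yap-shRNA level was 2.17 times the control level on 71 and 30 counts.

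Ucp3 (ENSMUSG00000032942, chromosome 7 from 100472990 to 100486432, plus strand) encodes an uncoupling protein of the inner mitochondrial membrane that is abundant in fast muscle and rises with fatty acid supply. It was at 241, 123 and 88.9 CPM in control muscles 1, 2 and 3 and at 257, 119 and 78.6 CPM in Yap-shRNA muscles 1, 2 and 3. The 3 numbered pairs did not overlap one another and stood in the order of Pdk4, while the groups overlapped fully. The fall from muscle 1 to muscle 3 was 2.71-fold in control and 3.27-fold in Yap-shRNA muscle, smaller than that of Pdk4. The log2 fold change between groups was 0.0038 (SE 0.45, 95% interval -1.0 to 1.01), a value so near 0 that its sign turned under other scalings. An opposite-strand gene, Gm10603, overlaps Ucp3 in its span but shares no exon base with it, and the sources used here state no strand setting.

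None of 17 genes of lipoprotein lipase and the lipid droplet passed the test, and 10 of them had a log2 fold change above 0 (median 0.03). Dgat1, which makes triglyceride, had the largest difference at -0.22 (SE 0.18), with 10.7, 16.1 and 13.5 CPM in control and 10.4, 10.7 and 13.5 CPM in Yap-shRNA muscles 1, 2 and 3. Lipe, hormone-sensitive lipase, differed by 0.14 (SE 0.14). In 4 of the 17 genes both muscles numbered 1 lay above the rest, beside 9.14% of all genes, and in 2 they lay below, beside 9.47%. Both muscles numbered 2 lay above the rest in 2 genes, beside 10.5%, and both numbered 3 lay below in 2, beside 5.36%. The numbered pairs stood apart from one another in 0 of the 17, beside 9.35%.

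Among 20 measured genes of fatty acid entry and oxidation, many of them targets of PPAR receptors, none passed the adjusted threshold, and 13 had a log2 fold change above 0 (median 0.02). Acot1 and Fgf21 were not in the table. Cpt1a, the liver-type carnitine palmitoyltransferase that admits fatty acids to the mitochondrion, was at 22.5, 10.7 and 8.62 CPM in control and 18.2, 10.4 and 8.61 CPM in Yap-shRNA muscles 1, 2 and 3. Its numbered pairs did not overlap and stood in the order of Pdk4, and its log2 fold change was -0.18 (SE 0.38). Acot2, a mitochondrial acyl-CoA thioesterase named after its values were seen, had the same order at 16.7, 11.2 and 6.32 CPM in control and 22.2, 8.75 and 5.90 CPM in Yap-shRNA muscle. Acot2 is closely related to Acot1, so the division of reads between them is uncertain.

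Over the whole list, both muscles numbered 3 lay below the other 4 for 11 of 20 genes, beside 5.36% of all genes tested, and both muscles numbered 1 lay above for 4, beside 9.14%. The median difference of the muscles numbered 3 from the rest was -0.26 on the log2 scale, against 0.0038 over all genes, and that of the muscles numbered 1 was 0.19, against 0.0062. The 11 genes included Fabp3, the fatty acid binding protein of muscle, at 80.2, 86.4 and 51.8 CPM in control and 109, 75.4 and 41.9 CPM in Yap-shRNA muscles 1, 2 and 3. For Slc25a20, the carnitine and acylcarnitine carrier, the values were 92.5, 105 and 71.1 CPM and 116, 99.4 and 68.7 CPM. These examples were chosen after their values were seen. The gaps were small beside that of Pdk4, and the summed level of the list was 2880, 3033 and 2686 CPM in control and 3406, 2960 and 2342 CPM in Yap-shRNA muscle.

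**Figure D2:**
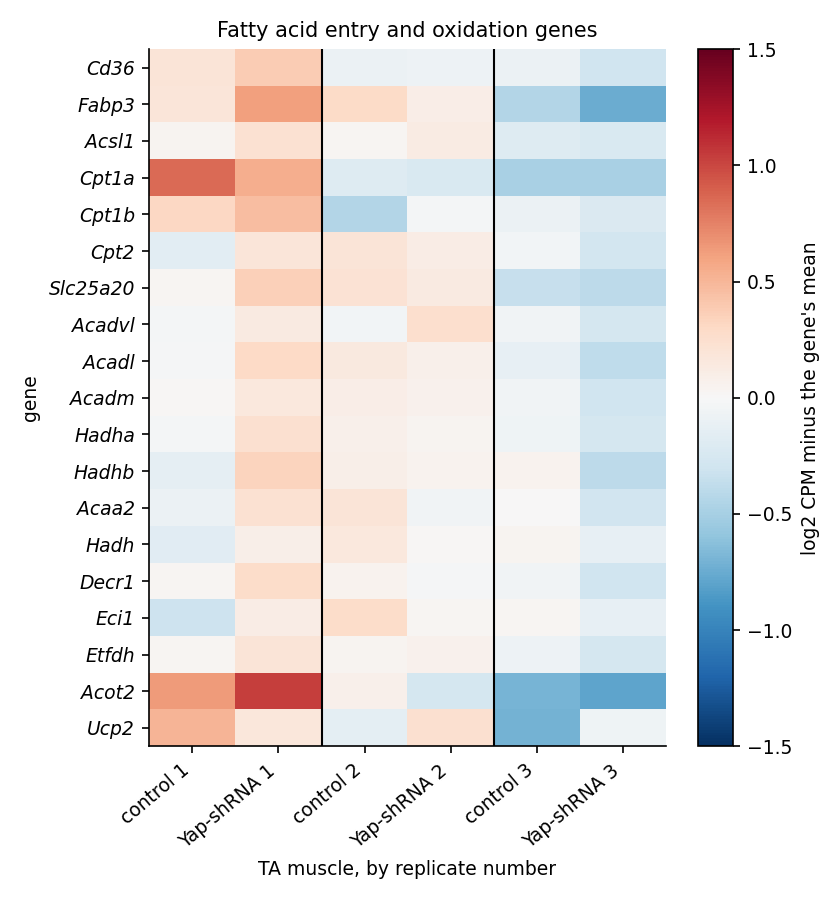
Log2(CPM + 0.5) of 19 of the 20 measured genes of fatty acid entry and oxidation, less each gene's mean over the 6 TA muscles, with muscles in columns by replicate number. Red is above and blue below the gene's mean, and the scale ends at 1.5 in either direction. The muscles numbered 3 are pale to mid blue for most genes, and Cpt1a and Acot2 are each redder in the muscles numbered 1 than in the other muscles.

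Arrdc2 (ENSMUSG00000002910, chromosome 8 from 70835129 to 70839720, minus strand) encodes an α-arrestin, of a family that brings ubiquitin ligases to membrane proteins. Its counts were 164, 447 and 253 in control muscles 1, 2 and 3 and 192, 431 and 200 in Yap-shRNA muscles 1, 2 and 3, or 12.8, 37.4 and 20.8 CPM and 16.1, 33.1 and 15.9 CPM. Both muscles numbered 2 stood above the other 4, and the muscles numbered 1, highest for Pdk4, were low for Arrdc2. The muscles numbered 1 and 3 overlapped, and so did the groups. Control muscle 2 held 1.80 times the level of control muscle 3, and Yap-shRNA muscle 2 held 2.07 times that of Yap-shRNA muscle 3. The Yap-shRNA level was 1.26, 0.885 and 0.768 times the control level in the muscles numbered 1, 2 and 3, so the direction was not shared. The group means were 23.6 ± 12.6 and 21.7 ± 9.85 CPM (SD, n = 3 each), and the log2 fold change was -0.12 (SE 0.39, 95% interval -0.99 to 0.76).

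Arrdc3 (ENSMUSG00000074794, chromosome 13 from 80883384 to 80896042, plus strand) encodes the α-arrestin that takes part in the turnover of β-adrenergic receptors. It was at 29.0, 17.2 and 20.3 CPM in control and 25.3, 22.8 and 25.9 CPM in Yap-shRNA muscles 1, 2 and 3. Its control muscles spread wider than its Yap-shRNA muscles (22.2 ± 6.12 against 24.7 ± 1.64 CPM, SD, n = 3 each), and it ran against Arrdc2, being lowest in the muscles numbered 2. Between groups the log2 fold change was 0.15 (SE 0.18, 95% interval -0.25 to 0.55). In CPM per kb, the ratio of Arrdc2 to Arrdc3 moved from 0.852 in control muscle 1 to 4.21 in control muscle 2 and from 1.24 to 2.81 in the Yap-shRNA muscles of the same numbers.

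Txnip (ENSMUSG00000038393, chromosome 3 from 96557957 to 96561883, plus strand) encodes the thioredoxin-interacting protein, an α-arrestin that restrains glucose uptake. It was at 780, 841 and 692 CPM in control and 802, 804 and 703 CPM in Yap-shRNA muscles 1, 2 and 3. The numbered pairs did not overlap, with the muscles numbered 2 highest and those numbered 3 lowest, but the whole range was narrow. The group means were 771 ± 74.8 and 770 ± 57.9 CPM (SD, n = 3 each), and the log2 fold change was -0.0024 (SE 0.11, 95% interval -0.24 to 0.24), a value whose sign also turned with the scaling. Txnip shares 606 exon bases with the opposite-strand gene Gm15441, whose reads cannot be told apart from its own without strand.

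None of 8 measured genes of the arrestin-domain family and the thioredoxin system passed the test (Arrdc5 was not in the table). Of these, 4 had a log2 fold change above 0, and the median was -0.00091. Txnrd1, the cytosolic thioredoxin reductase, differed most at 0.22 (SE 0.10), with 71.2, 60.1 and 66.3 CPM in control and 81.1, 72.7 and 76.6 CPM in Yap-shRNA muscles 1, 2 and 3. All its Yap-shRNA muscles lay above its control muscles, but its unadjusted p was 0.0524. Arrb2, a β-arrestin, differed by -0.16 (SE 0.14). Arrdc1, named after its values were seen, was the gene of the list whose numbered pairs did not overlap (9.35% of all genes), in the order of Pdk4 but over a narrow range of 5.83 to 8.09 CPM.

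Ppargc1a (ENSMUSG00000029167, chromosome 5 from 51454250 to 51567726, minus strand) encodes PGC-1α, the co-activator that drives mitochondrial gene expression. It was at 33.6, 29.0 and 34.1 CPM in control and 30.8, 30.5 and 31.3 CPM in Yap-shRNA muscles 1, 2 and 3. It was among the steadiest of the members, with group means of 32.2 ± 2.79 and 30.8 ± 0.392 CPM (SD, n = 3 each). Its log2 fold change was -0.06 (SE 0.10, 95% interval -0.29 to 0.16).

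Lpin1 (ENSMUSG00000020593, chromosome 12 from 16535669 to 16610966, minus strand) encodes a phosphatidate phosphatase that also acts as a co-activator with PGC-1α and PPARα. It was at 408, 345 and 358 CPM in control and 409, 392 and 337 CPM in Yap-shRNA muscles 1, 2 and 3. The muscles numbered 1 lay above the rest, as for Pdk4, Angptl4 and Ucp3, by a narrow margin. The group means were 371 ± 33.2 and 379 ± 37.9 CPM (SD, n = 3 each), and the log2 fold change was 0.03 (SE 0.11, 95% interval -0.22 to 0.28).

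Of 22 transcription factors and co-activators of the fasting response, none passed the test, 13 had a log2 fold change above 0, and the median was 0.03. Cebpd, a factor induced by glucocorticoids and inflammation, differed by 0.40 (SE 0.28), with 6.07, 9.62 and 5.01 CPM in control and 7.21, 12.1 and 7.97 CPM in Yap-shRNA muscles 1, 2 and 3. Pparg differed by 0.29 (SE 0.25). The numbered pairs did not overlap for 3 genes, named after their values were seen, beside 9.35% of all genes. Ppard, the PPAR that predominates in muscle, was lowest in the muscles numbered 1, at 29.3 and 31.5 CPM, and highest in those numbered 2, at 38.5 and 43.0 CPM. Ppargc1b (8.41 and 8.31 CPM in the muscles numbered 1, 6.24 and 4.71 CPM in those numbered 3) and Mlxip, or MondoA, a glucose sensor and known activator of Txnip and Arrdc4 (95 and 90.1 CPM, then 76.3 and 78.2 CPM), had the order of Pdk4.

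Among 24 FOXO- and glucocorticoid-responsive genes of fasted muscle, none passed the adjusted threshold and 21 had a log2 fold change above 0 (median 0.06, beside -0.0029 over all genes). An unadjusted p under 0.05 was found for 4 of them, Mt2, Mt1, Cdkn1a and Gadd45a, beside 1.75% of all genes. Mt2, a metallothionein, differed most at 2.18 (SE 0.60), with 13.6, 4.01 and 3.04 CPM in control and 11.1, 34.6 and 48.6 CPM in Yap-shRNA muscles 1, 2 and 3. Its paralog Mt1 differed by 1.05 (SE 0.29). The cell cycle inhibitor Cdkn1a differed by 0.58 (SE 0.16) and the stress gene Gadd45a by 0.52 (SE 0.18), and both were named for their p. The numbered pairs did not overlap for Map1lc3a, Ctsl, Irs2 and Cited2, named after their values were seen, beside 9.35% of all genes. Of these, Map1lc3a, which coats autophagosomes, was lowest in the muscles numbered 1, at 193 and 224 CPM, and highest in those numbered 2, at 314 and 264 CPM. Irs2, an insulin receptor substrate that FOXO factors induce, was lowest in the muscles numbered 2, at 13.2 and 16.7 CPM, and at 25.7 and 26.0 CPM in those numbered 1.

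The hour of tissue collection also moves many fasting genes, so 16 measured genes of the circadian clock were read in the same way (Bmal1, listed here as Arntl, and Npas2 gave no row of their own). None passed the test, 12 had a log2 fold change above 0, and the median was 0.02. Ciart differed by 0.27 (SE 0.19). Arntl, the positive arm of the clock, differed by -0.23 (SE 0.12), with 13.0, 12.6 and 13.1 CPM in control and 10.7, 11.1 and 11.2 CPM in Yap-shRNA muscles 1, 2 and 3. All its Yap-shRNA muscles lay below its control muscles, at an unadjusted p of 0.0864. By number, only Cry2 and Nr1d2 formed pairs without overlap, beside 9.35% of all genes, and over narrow ranges (31.9 to 44.2 CPM and 80.1 to 95.7 CPM).

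Between groups, none of the 9 members differed beyond the spread of the muscles. No member had an adjusted or unadjusted p under 0.05, beside 0.0% and 1.75% of all genes. The adjusted p was 1.00 for each of the 9 in the quasi-likelihood test, and for none did the groups stand apart, beside 5.27%. Without control muscle 1, however, Arrdc3 (log2 fold change 0.39, unadjusted p of 0.0116, adjusted p of 0.621) and Angptl4 (1.70, unadjusted p of 0.0389, adjusted p of 0.682) had an unadjusted p under 0.05 in that test, as did 957 genes in all. With the replicate number as a block, no member passed either threshold, beside 0.0% and 1.61% of all genes. Pdk4 and Arrdc2 were chosen for wide spread between muscles and small differences within a number. For them, neither the plain nor the blocked outcome is therefore a test. The log2 fold change was above 0 for 6 members and below 0 for 3, and its median was 0.0038. The intervals differed widely in what they leave possible. Those of Pdk2, Txnip, Ppargc1a and Lpin1 ended within 0.29 of 0, whereas those of Pdk4 and Angptl4 passed 1.5 in both directions, so these data do not show that Pdk4 and Angptl4 were alike in both groups.

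**Figure D3:**
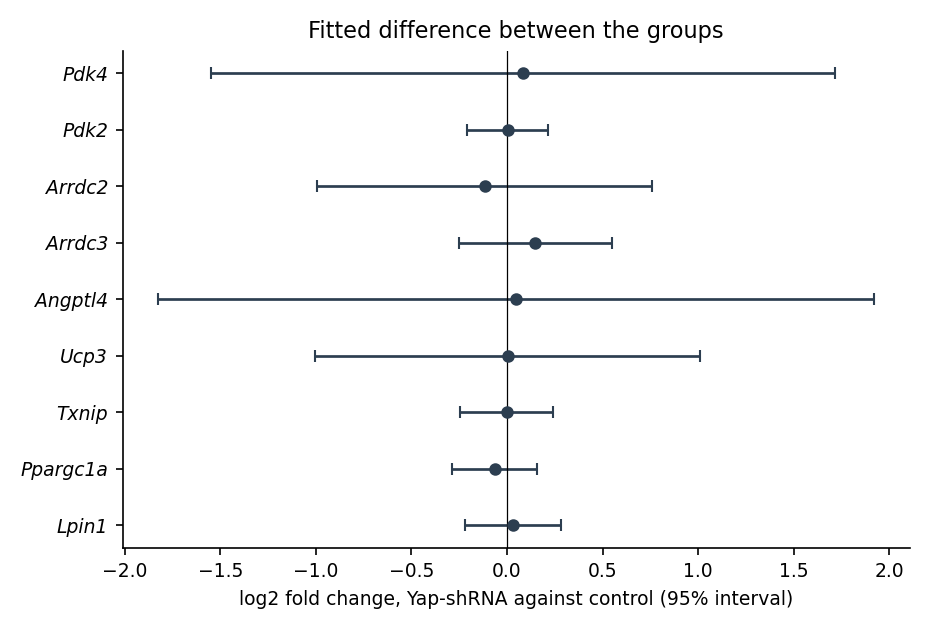
Log2 fold change of each member, Yap-shRNA against control, from edgeR's quasi-likelihood fit over 6 muscles (points) with its 95% interval (bars). All 9 intervals include 0, and they run from -0.21 to 0.22 for Pdk2 to -1.82 to 1.92 for Angptl4.

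The standard deviation of log2(CPM + 0.5) within groups shows how unequal this set was. It was 1.42 for Angptl4, 1.32 for Pdk4, 0.80 for Ucp3, 0.68 for Arrdc2 and 0.27 for Arrdc3. The other 4 were at 0.14 (Lpin1), 0.13 (Txnip), 0.09 (Ppargc1a) and 0.09 (Pdk2). The median over all genes was 0.19. The lower values rested in part on single muscles: without control muscle 1 Arrdc3 was at 0.12 and Pdk2 at 0.047, without control muscle 2 Ppargc1a was at 0.016, and with library totals in place of TMM scaling Pdk2 was at 0.037. By size of this deviation Angptl4 ranked 67, Pdk4 77, Ucp3 173 and Arrdc2 249 of 13226 genes, while Pdk2 ranked 11911. Among 7272 genes with a mean of at least 10 CPM, Pdk4 ranked 15, Ucp3 32 and Arrdc2 49.

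**Figure D4:**
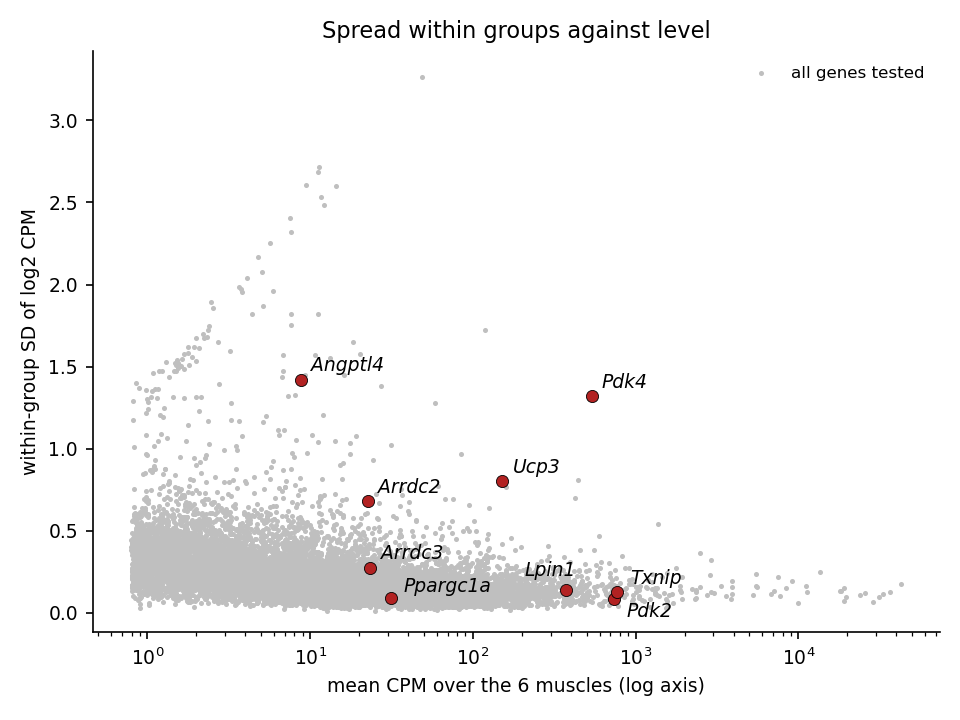
Standard deviation of log2(CPM + 0.5) within groups, pooled over control and Yap-shRNA, against mean CPM over the 6 muscles (log axis). Each grey point is 1 of 13226 genes and each red point a member. Pdk4, at 1.32, lies far above other genes of its level, and Pdk2, at a similar level, lies at 0.09.

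By length-scaled level, the members ran from Txnip at a mean of 247 CPM per kb through Pdk2 at 233, Pdk4 at 153, Ucp3 at 48.3 and Lpin1 at 38.8 to Arrdc2 at 7.02, Ppargc1a at 4.78, Arrdc3 at 3.74 and Angptl4 at 2.47. Neighbours in this order overlapped over the 6 muscles except Lpin1, whose lowest muscle was at 34.8, and Arrdc2, whose highest was at 11.6. Pdk4 alone spanned 51.6 to 321 CPM per kb, so its place relative to Txnip and Pdk2 depended on the muscle.

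The variable members differed more between replicate numbers than within them. The largest difference between the mean log2 levels of any pair of numbers was 2.58 for Pdk4, 2.54 for Angptl4, 1.57 for Ucp3 and 1.27 for Arrdc2. The largest difference between treated and control muscle of equal number was 0.16 for Pdk4, 0.98 for Angptl4, 0.18 for Ucp3 and 0.37 for Arrdc2. Over the 9 members the medians of these quantities were 0.44 and 0.18, and over all genes they were 0.24 and 0.32. The numbered pairs did not overlap one another for 3 members (Pdk4, Ucp3 and Txnip), beside 9.35% of all genes. The treated muscle differed from its control in 1 direction in all 3 pairs only for Pdk4, beside 17.4% of all genes. Since Pdk4 and Arrdc2 were chosen for this pattern, these counts describe them and test nothing.

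The order was not common to the members. The muscles numbered 1 lay above the other 4 for Pdk4, Angptl4, Ucp3 and Lpin1, the muscles numbered 2 for Arrdc2 and Txnip, and the muscles numbered 3 for Pdk2. Of all genes tested, these positions were taken by 9.14%, 10.5% and 5.31%. The muscles numbered 3 lay below the other 4 for Pdk4, Ucp3 and Txnip (5.36% of all genes) and those numbered 2 for Ppargc1a (9.82%), while those numbered 1 did so for no member (9.47%). Some margins were thin: 804 against 802 CPM for Txnip in the muscles numbered 2, and 765 against 762 CPM for Pdk2 in those numbered 3. For Ppargc1a in the muscles numbered 2 it was 30.5 against 30.8 CPM. An order of 1, 2, 3 without overlap was found for 144 genes, or 1.09%, and with at least a 2-fold step from 3 to 1 for 10 genes, or 0.0756%, among them Pdk4, Ucp3, Acot2 and Cpt1a. The order 2, 3, 1, towards which Arrdc2 tended, was found for 403 genes, or 3.05%, and with at least a 2-fold step from 1 to 2 for 16 genes. With such a step between their extreme numbers, the orders 1, 3, 2 and 2, 1, 3 held 10 and 8 genes. The orders 3, 1, 2 and 3, 2, 1 held 1 and 3 genes.

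**Figure D5:**
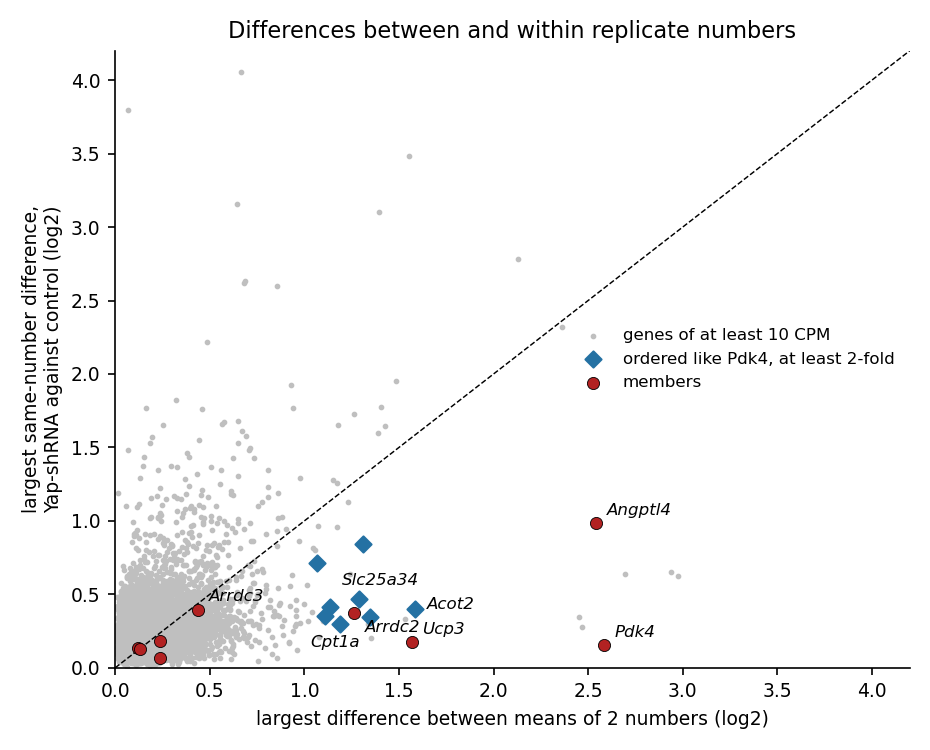
For each gene with a mean of at least 10 CPM (grey), the largest difference between the means of 2 replicate numbers against the largest difference between Yap-shRNA and control muscle of equal number, both in log2, with members in red (Angptl4, whose mean is 8.76 CPM, included) and the other genes ordered like Pdk4 with at least a 2-fold step as blue diamonds, at any level. The dashed line marks equality, and 6 genes lie beyond the axes. Pdk4 sits at 2.58 against 0.16, far to the right and near the base.

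Profiles over the 6 muscles were compared by Pearson's r of log2(CPM + 0.5), as a description over 6 points that share animals, depth and RNA composition. Between members, r was 0.99 for Pdk4 and Ucp3, 0.96 for Pdk4 and Angptl4, 0.87 for Pdk4 and Lpin1, -0.43 for Pdk4 and Arrdc2 and -0.85 for Arrdc2 and Arrdc3. It was -0.68 for Pdk4 and Pdk2 and 0.05 for Pdk4 and Ppargc1a. Over 7272 genes, those most like Pdk4 were Ucp3 (0.994), the transporter Abca8a (0.990) and the phosphoinositide phosphatase Synj2 (0.982). Abca8a was at 49.3, 37.1 and 34.5 CPM in control and 50.3, 36.7 and 33.0 CPM in Yap-shRNA muscles 1, 2 and 3, a far narrower range than that of Pdk4. Those most like Arrdc2 were Fam73b (0.993), Nudt4 (0.991) and Fbxo28 (0.990), and Nudt4, a hydrolase of diphosphoinositol phosphates, was at 315, 429 and 369 CPM and 343, 406 and 346 CPM. The gene most like Lpin1 was the autophagy kinase Ulk1 (0.994).

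None of the summed marker lists of other cells took the order of Pdk4 without overlap. Slow fibre markers summed to 136, 117 and 109 CPM in control and 120, 89.8 and 152 CPM in Yap-shRNA muscles 1, 2 and 3. Their median difference from the rest was 0.48 on the log2 scale in the muscles numbered 1 and -0.49 in those numbered 2. Both muscles numbered 1 lay above the rest for 0 of these 7 genes. The part of slow fibres in the members' levels was not tested. Adipocytes also express Angptl4 and other PPAR targets, and the sum of 8 adipocyte markers, all of them measured, was at 265, 274 and 260 CPM in control and 264, 238 and 305 CPM in Yap-shRNA muscles 1, 2 and 3. Most of that sum was Fabp4 (205 to 258 CPM), which endothelial cells also express. Yap-shRNA muscle 3 stood apart in some of the markers, with Adipoq at 16.3 CPM against 1.59 to 4.75 CPM in the other 5 muscles, Plin1 at 10.8 against 1.59 to 3.27 CPM and Cfd at 50.1 against 8.03 to 14.0 CPM. Cidec, Lep and Retn were also highest there. Fabp4 was lowest there, and Pck1 was highest in control muscle 3, at 18.3 CPM against 4.55 CPM in Yap-shRNA muscle 3. In Yap-shRNA muscle 3 Angptl4 and Pdk4 were the lowest of their group, at 2.87 and 185 CPM, and the part of adipocyte RNA in the members' levels was not tested. Summed macrophage markers were at 236, 147 and 100 CPM and 172, 206 and 221 CPM, and fibroblast markers were at 2559, 1503 and 1255 CPM and 1474, 1506 and 2971 CPM. Transcripts of 8 liver plasma proteins summed to 459 CPM in control muscle 3 and to 0.399 to 53.1 CPM in the other 5 muscles. Erythroid markers were at 120, 203 and 141 CPM in control and 243, 151 and 101 CPM in Yap-shRNA muscles 1, 2 and 3. Their median difference of the muscles numbered 3 from the rest was -0.53 on the log2 scale, in the direction of the fatty acid list, and their part in that list was not tested. Endothelial markers were slightly higher in the muscles numbered 1, at 481 and 465 CPM against 421 to 457 CPM in the rest, a gap far smaller than that of Pdk4, and their part in it was not tested. Of 7 measured immediate early genes, which respond to handling and stress, Nr4a1 lay above the rest in the muscles numbered 3 (234 and 203 CPM against 157 to 175 CPM) and Fos in those numbered 1 (7.94 and 10.2 CPM against 4.77 to 7.83 CPM), and for none of the other 5 did the muscles of a number lie above the rest.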

How the data were processed

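RNA-sequencing of 3 control and 3 Yap-shRNA TA muscles was analysed. The authors deposited raw read counts per gene, without normalisation, as a single table whose smallest row total was 60. The submitters' processing notes name bcl2fastq 2.20.0.422 and the build GRCm38, and the aligner, counter and strand setting are not given in the sources used here. Depth per muscle (11987167 to 12710393 counts) sets the precision of low genes such as Angptl4. The design text places treated and control muscles in the same 3 animals, but no label ties a muscle to an animal, so p-values measure the spread between muscles and take no account of the animal. No library repeated another of its group (chi-square per degree of freedom of 7.62 to 21.4).

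The quasi-likelihood test of edgeR 4.0.16 (R 4.3.3) was run with TMM factors and no covariate, with Benjamini-Hochberg adjustment over 13226 genes with a total of at least 60 and a threshold of 0.05. CPM values are TMM-scaled, and log2 levels used CPM + 0.5. Exon lengths and positions came from GENCODE M21 on GRCm38 (13199 genes with a length), and promoters from RefSeq on GRCm38.p6 for 8 of 9 members. The members and lists were chosen with earlier results of these data known. Named were the members, Yap1, the 2 genes of each pathway list with the largest absolute log2 fold change, and the 3 profiles most like a member, and others are marked as named after their values were seen. One gene that this rule covers is not reported here. Alternatives were DESeq2 1.42.0, the likelihood ratio test, voom of limma 3.58.1, other scalings and filters, a replicate block and leaving out each muscle. The quasi-likelihood test, the replicate block, the likelihood ratio test, voom and DESeq2 were also run on simulated data, and the other alternatives were not.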

Additional observations from a re-analysis of the deposited data

How the results depend on the processing

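The count of genes past the threshold was 0 of 13226 with the quasi-likelihood test (232 at an unadjusted p under 0.05), 5 with DESeq2 (135 unadjusted) and 5 with the likelihood ratio test (202 unadjusted), and 0 to 1 when 1 muscle was left out, Mir155hg being called without Yap-shRNA muscle 3. Leaving out 1 muscle gave 129 genes (without control muscle 3) to 957 genes (without control muscle 1) at an unadjusted p under 0.05. No member passed the adjusted threshold under any of these, and Arrdc3 and Angptl4 passed the unadjusted one without control muscle 1. Yap1 was called by DESeq2 (adjusted p 5.85e-07) and by the likelihood ratio test (adjusted p 2.22e-06), its adjusted p in the other settings was 0.105 to 1.00, and its log2 fold change ranged from -1.29 to -0.93 when 1 muscle was left out. Over 9 members and 14 alternatives, 126 combinations, the direction was kept in 99 and reversed in 27 (omitting the count filter changed nothing, since no gene fell under it, and is not counted), and leaving out a muscle brought no member's adjusted p below 0.62. The sign of Txnip turned with DESeq2 and RLE size factors (0.00054 each) and with library totals alone (0.013), and that of Ucp3 with voom (-0.045), upper-quartile scaling (-0.00039), library totals alone (-0.0049) and the replicate block (-0.043).

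Single muscles decided the sign of the variable members. Leaving out 1 muscle moved the log2 fold change of Pdk4 from -0.98 (without Yap-shRNA muscle 1) to 1.18 (without control muscle 1), that of Angptl4 from -1.05 to 1.70 and that of Ucp3 from -0.61 to 0.51 (the same muscles), and that of Arrdc2 from -0.56 (without Yap-shRNA muscle 2) to 0.38 (without control muscle 2). The ranges were -0.056 to 0.040 for Pdk2, -0.0037 to 0.39 for Arrdc3, -0.074 to 0.065 for Txnip, -0.13 to -0.023 for Ppargc1a and -0.025 to 0.11 for Lpin1. The within-group deviation ranged over these fits from 1.12 to 1.51 for Pdk4, 0.56 to 0.78 for Arrdc2, 0.12 to 0.32 for Arrdc3, 0.047 to 0.099 for Pdk2 and 0.016 to 0.10 for Ppargc1a.

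The numbers were not taken to pair the muscles in the main fit, because no label states that the replicate number is the animal. The departures from the group means correlated between the muscles of numbers 1, 2 and 3 at -0.04, 0.21 and -0.25 over 13226 genes. These correlations take in low genes too and cannot decide whether muscles of equal number came from 1 animal. Both muscles numbered 2 correlated best with each other, and no other muscle correlated best with its own number. With the replicate number as a block, 0 genes passed the adjusted threshold and 213 (1.61%) an unadjusted p under 0.05, and 0 of 9 members passed either. The block gave a log2 fold change of 0.09 (SE 0.10) for Pdk4, -0.09 (SE 0.15) for Arrdc2 and 0.26 (SE 0.26) for Angptl4. Since Pdk4 and Arrdc2 were chosen for small differences within a number, their blocked values are a description only. With 3 muscles per group, and 30 to 260 counts of Angptl4 in a muscle, small changes of the variable members were not detectable.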

Other observations

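Genes other than the members also differed more between replicate numbers than within them. The 10 genes with a mean of at least 10 CPM, numbered pairs that did not overlap and the largest difference between the means of 2 numbers were read after their values were seen. Pdk4 ranked 2 and Ucp3 5 among them, and 5 of the rest are given here. Chac1, a glutathione-degrading enzyme induced by amino acid stress, was at 53.9, 93.7 and 19.2 CPM in control and 65.5, 104 and 15.8 CPM in Yap-shRNA muscles 1, 2 and 3, so that the muscles numbered 2 were highest and those numbered 3 lowest. Fbp2, the muscle fructose bisphosphatase, was lowest in the muscles numbered 2, at 35.5 and 28.2 CPM, and highest in those numbered 1, at 96.4 and 88.8 CPM. Lrtm1 took the order 2, 3, 1, with 113 and 98.1 CPM in the muscles numbered 2 and 43.4 and 38.7 CPM in those numbered 1. The uncharacterised transcript B230312C02Rik had the widest range of all 10, with 56.9 and 35.9 CPM in the muscles numbered 2 against 5.29 to 10.4 CPM in the other 4. Slc25a34, a mitochondrial carrier, followed the order of Pdk4 at 20.9, 11.6 and 9.60 CPM in control and 29.1, 12.4 and 10.0 CPM in Yap-shRNA muscle.

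The order of Pdk4 with at least a 2-fold step was also taken by Slc25a22, the mitochondrial glutamate carrier, at 31.9, 26.7 and 17.1 CPM in control and 40.9, 23.3 and 15.9 CPM in Yap-shRNA muscles 1, 2 and 3, and by Musk, the receptor kinase of the neuromuscular junction, at 6.69, 2.93 and 2.71 CPM and 5.03, 4.07 and 2.07 CPM. Fam69b and the paralogs H2-Q6 and H2-Q7, whose reads cannot be told apart with certainty, completed the 10 genes of that order, each with a mean below 10 CPM.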
